A study of Homo sapiens with 6 samples.

Results

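The organic solute transporter subunits SLC51A and SLC51B and 7 ATP-binding cassette (ABC) efflux pumps, ABCC1, ABCC2, ABCC3, ABCC4, ABCC5, ABCB1 and ABCG2, were followed in CAL-27 cells whose XBP-1s had been knocked down. These are 9 of the 19740 genes that carry a symbol on the array, and 16821 of those genes had a probe that could be tested. Every probe annotated with 1 of the 9 symbols was taken, which gave 13 probes. The members were chosen by the measured log2 fold change of SLC51A in this same comparison, with the other 8 genes added as exporters of related substrates, so all member values below are descriptions and carry no p-value.

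CAL-27 is an established line from a human squamous cell carcinoma of the tongue. The cells of all samples carried a short hairpin RNA, either one directed against XBP-1s (shXBP-1s, n = 3) or a negative control (shCtrl, n = 3). RNA of each sample was hybridised to its own one-colour Agilent array. The sources used here do not say whether the 3 samples of a group were separate cultures, or whether a group was a clone or a pool, so that the errors given measure only the spread between these samples, which may be technical.

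XBP-1s is the spliced, active form of the transcription factor XBP1, made when the endoplasmic reticulum stress sensor IRE1 removes a short intron from XBP1 RNA. SLC51A and SLC51B (OSTα and OSTβ) work only as a pair, in the basolateral membrane of gut, liver and kidney epithelium, where they let bile acids and steroid conjugates leave the cell down their gradient. The ABCC proteins (multidrug resistance proteins), ABCB1 (P-glycoprotein) and ABCG2 (breast cancer resistance protein) spend ATP to export conjugates, nucleotides and drugs, and are known for drug resistance in tumour cells.

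XBP1, the target, was checked first. Its background-subtracted signal was 2536, 2743 and 2766 intensity units on the shCtrl arrays and 695.4, 617.2 and 551.0 on the shXBP-1s arrays. Its log2 fold change (shXBP-1s minus shCtrl) was -2.39 ± 0.04 (SE), a 5.23-fold lower signal, and the groups did not overlap. Nothing in the probe's annotation separates spliced from unspliced XBP1 RNA. Levels below are log2 signals relative to the 75th percentile of the same array, so that 0 is the signal of that percentile. The 75th percentile itself lay between 687.4 and 761.3 units in shCtrl and was higher in shXBP-1s, between 792.0 and 983.4 units. From 82.1% to 84.8% of spots per array were well above background.

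The arrays were assigned to 2 slides by their recorded scan time, as arrays that shared a scan time were taken to share a slide. Slide 1 held shCtrl replicates 2 and 3, and slide 2 held shCtrl replicate 1 with all shXBP-1s arrays, so a comparison within a slide rests on shCtrl replicate 1 alone. All 6 squamous epithelium markers were well above background on all 6 arrays. The keratins KRT14, KRT17 and KRT5 rose by 1.58, 1.53 and 1.43 on the log2 scale in shXBP-1s (adjusted p = 3.32e-06, 1.55e-06 and 1.09e-06, limma with Benjamini-Hochberg adjustment). The epithelial adhesion genes CDH1 (0.13) and EPCAM (0.01) did not pass the test. The remaining squamous marker, TP63, rose by 0.93 (adjusted p = 7.57e-05, limma). The summed signal of the 6 markers, as a multiple of the 75th percentile, ranged from 57.9 to 60.0 in shCtrl and from 67.6 to 74.5 in shXBP-1s. Of 10 markers of other cell types, 8 were well above background on all arrays, VIL1 was so on none and ALB on some, and their summed signal ranged from 1.45 to 1.60 in shCtrl and from 1.02 to 1.08 in shXBP-1s. PDGFRB, a receptor of mesenchymal cells, was the 1 gene of this list that was called and fell by 1.28 (adjusted p = 9.93e-06, limma). Without it the summed signal ranged from 0.763 to 0.817 in shCtrl and from 0.692 to 0.764 in shXBP-1s. The list's median log2 fold change was -0.06, and with no minimum fold 3 of its 10 tested probes passed the adjusted threshold lower and 1, for PTPRC, a leukocyte marker, higher (0.40). Another PTPRC probe, with a brighter signal, had a value of 0.05 (adjusted p = 0.722, limma). The part of these marker shifts in the values below was not tested.

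A probe was tested where every array of shCtrl, of shXBP-1s or of both read it well above background, which left 27624 probes. A call means an adjusted p under 0.05 in limma together with a change of at least 2-fold. Over all tested probes 4.90% were called, 2.61% lower and 2.29% higher in shXBP-1s. Of the 13 member probes 12 were tested, covering all 9 genes, and 2 were called, SLC51A and 1 of the ABCC3 probes, both lower. Over all genes with a tested probe 3.64% had a probe called lower and 2.79% a probe called higher. Because the comparison had chosen SLC51A, nothing is read from that count. The log2 fold changes of the 12 probes had a median of -0.01 and ran from -3.15 to 0.89, beside a median of -0.02 and a middle 90% from -0.77 to 0.75 over all tested probes.

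SLC51A, the multi-pass subunit that carries the transport path, gave a signal of 118.6, 120.6 and 124.3 units on the shCtrl arrays and 21.0, 22.6 and 9.4 on the shXBP-1s arrays (probe for NM_152672). On the log2 scale its level was -2.53, -2.66 and -2.60 in shCtrl and -5.55, -5.31 and -6.39 in shXBP-1s. All 3 knockdown arrays were far below all 3 controls, and shXBP-1s replicate 3 was the lowest. The mean level was -2.60 ± 0.06 in shCtrl and -5.75 ± 0.57 in shXBP-1s (SD, n = 3). The log2 fold change was -3.15 ± 0.25 (SE), an 8.88-fold lower signal, and took place 2 from the bottom among the 27624 tested probes. As these are bulk samples, fewer cells that carry the transcript and less transcript per cell cannot be told apart.

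The size of the SLC51A change depended on how the background was handled. The signal in shXBP-1s was still well above background on all 3 arrays, though close to the lowest signal that counted as such, which was between 4.9 and 7.4 units per array. With normexp background correction, which fits a model of signal and background in place of plain subtraction, the log2 fold change was -1.83, and with quantile normalization after it -1.23. With the deposited log2 values it was -3.14, within slide 2 it was -3.21, and leaving out each array in turn gave values between -3.37 and -2.83. The value was below 0 under every one of these settings. Since SLC51A was chosen by this comparison on the same arrays, these values only describe how its size depends on the processing.

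**Figure D1:**
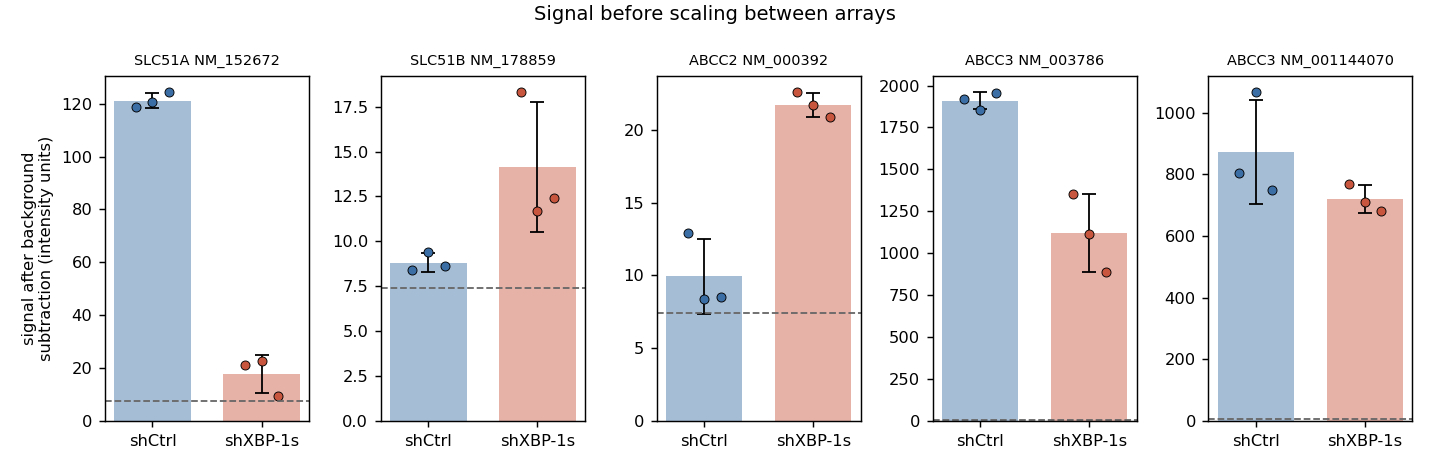
Background-subtracted signal in intensity units, before scaling between arrays, of the probes of SLC51A, SLC51B, ABCC2 and ABCC3, with a linear axis from 0 of its own for each probe (points, arrays; bars, mean; error bars, SD, n = 3). The dashed line marks 7.4 units, the highest among the 6 arrays of the lowest probe signal well above background. SLC51A goes from 118.6 to 124.3 units in shCtrl down to 9.4 to 22.6 units in shXBP-1s, while SLC51B stays between 8.4 and 18.3 units and ABCC2 between 8.4 and 22.6 units.

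The sequence before the start of each gene was taken as the letters in which motifs known for XBP1 and ATF6 can be looked for. RefSeq promoter windows (GRCh38.p14, 250 bases before to 50 after the start) were matched for 7 of the 9 genes, with 12 windows in all, since ABCB1 had 2 and ABCG2 had 5. ABCC1 and ABCC3 were not analysed here. The windows of the genes with the largest rise or fall among those matched, SLC51A, ABCC2 and SLC51B, are printed 5′ to 3′, and capitals mark a match to CCACG on either strand.
SLC51A: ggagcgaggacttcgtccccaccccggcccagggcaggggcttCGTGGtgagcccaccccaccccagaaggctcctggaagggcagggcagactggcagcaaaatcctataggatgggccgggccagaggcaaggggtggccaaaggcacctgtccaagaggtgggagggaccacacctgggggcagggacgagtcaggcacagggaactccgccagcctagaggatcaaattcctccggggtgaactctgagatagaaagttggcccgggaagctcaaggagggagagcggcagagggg
SLC51B: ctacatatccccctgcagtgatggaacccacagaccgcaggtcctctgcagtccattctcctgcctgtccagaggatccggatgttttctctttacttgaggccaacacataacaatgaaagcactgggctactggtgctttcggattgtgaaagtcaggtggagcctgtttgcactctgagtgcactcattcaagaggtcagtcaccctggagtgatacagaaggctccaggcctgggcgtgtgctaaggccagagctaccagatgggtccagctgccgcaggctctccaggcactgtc
ABCC2: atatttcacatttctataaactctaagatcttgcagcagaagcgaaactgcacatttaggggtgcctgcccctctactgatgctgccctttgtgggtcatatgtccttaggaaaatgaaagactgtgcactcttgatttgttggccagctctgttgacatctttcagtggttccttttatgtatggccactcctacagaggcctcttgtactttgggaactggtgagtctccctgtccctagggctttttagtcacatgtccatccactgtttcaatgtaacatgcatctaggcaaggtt

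The SLC51A window lies at chr3:196216284-196216583 on the plus strand, with a GC content of 65.0%, and its single CCACG match is on the minus strand, which prints as CGTGG. The SLC51B window is chr15:65045137-65045436 and the ABCC2 window chr10:99782390-99782689, both on the plus strand, with GC contents of 55.0% and 45.0%. Neither held any of the motifs searched. These were, on both strands, the endoplasmic reticulum stress element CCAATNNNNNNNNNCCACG, its parts CCAAT and CCACG, the unfolded protein response element core TGACGTG and the ACGT within it.

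Of all 35116 RefSeq windows a share of 0.0769% held the full stress element and 1.97% held TGACGTG, and of the 12 member windows 0 held either. CCACG was found in 7 of the 12 member windows and in 38.1% of all windows. ACGT was found in 3 of 12 beside 33.3%, and CCAAT in 1 of 12, an ABCB1 window, beside 34.6%. These are letter matches in a short window, and 3 of the 5 ABCG2 windows overlap each other.

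SLC51B, the single-pass subunit that SLC51A needs to reach the membrane, had a signal of 8.4, 9.4 and 8.6 units in shCtrl and 18.3, 11.7 and 12.4 in shXBP-1s (NM_178859). The log2 level was -6.36, -6.33 and -6.46 in shCtrl and -5.74, -6.26 and -5.99 in shXBP-1s. The 3 knockdown arrays were all above the 3 controls, by little in replicate 2. The log2 fold change was 0.39 ± 0.18 (SE), which did not pass the adjusted threshold. The partner subunits therefore had values on opposite sides of 0 in the same arrays, and the difference between the probes was not tested. Under normexp, where the median over all tested probes was -0.41, the SLC51B value was -0.84 ± 0.85 (SE). With quantile normalization added it was 0.05.

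**Figure D2:**
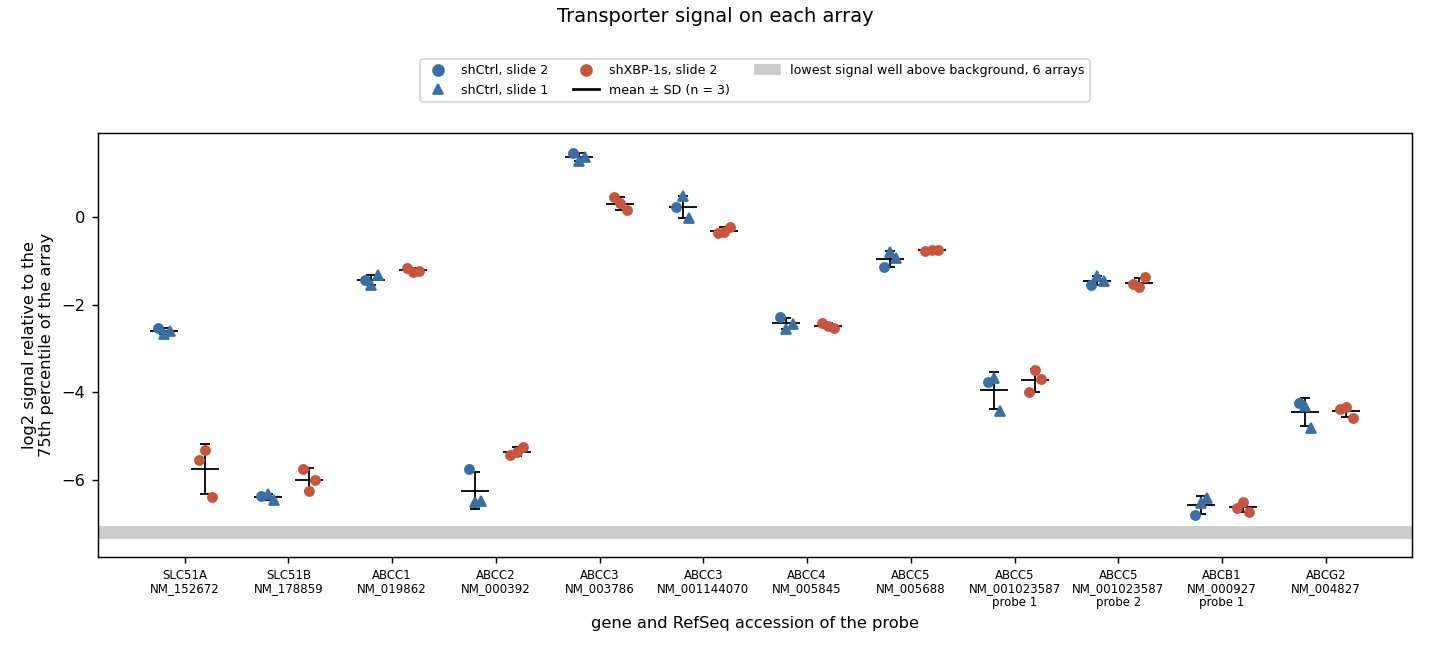
Level of each tested member probe on each array, as log2 signal relative to the 75th percentile of that array, with shCtrl and shXBP-1s side by side (points, arrays, with triangles for slide 1; lines, mean and SD, n = 3; grey band, lowest signal well above background). The SLC51A points fall from between -2.66 and -2.53 to between -6.39 and -5.31, and the ABCC3 points for NM_003786 from between 1.29 and 1.48 to between 0.17 and 0.46.

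ABCC3 (MRP3) is a basolateral pump for glucuronide conjugates and bile salts. Its probe for NM_003786 had a signal of 1920, 1856 and 1954 units in shCtrl and 1355, 1117 and 888.8 in shXBP-1s. The log2 level was 1.48, 1.29 and 1.37 in shCtrl and 0.46, 0.32 and 0.17 in shXBP-1s, so every knockdown array lay below every control. The log2 fold change was -1.06 ± 0.08 (SE), a 2.09-fold lower signal.

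That value lay just inside the 2-fold limit. It was -0.99 without shXBP-1s replicate 3, -0.94 under normexp and -0.95 under normexp with quantile normalization, and in those settings the probe was not called. Within slide 2 it was -1.17. Slide as a block gives that same estimate and is no separate check, since slide 1 held only controls. A probe for the variant NM_001144070 of ABCC3 fell less, with a log2 level of 0.23, 0.49 and -0.01 in shCtrl and -0.36, -0.33 and -0.22 in shXBP-1s. Its groups did not overlap on this scale, and its log2 fold change was -0.54 ± 0.11 (SE), past the adjusted threshold but short of 2-fold. Both ABCC3 probes were lower in shXBP-1s under every alternative, with ranges from -1.17 to -0.94 and from -0.66 to -0.41. Under normexp alone, however, the NM_001144070 probe had a value of -0.46, near the median of -0.41 over all tested probes.

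ABCC2 (MRP2), the apical pump that moves conjugated bilirubin and glutathione conjugates into bile, had the highest value of the members. Its signal was 12.9, 8.4 and 8.5 units in shCtrl and 22.6, 21.7 and 20.9 in shXBP-1s (NM_000392). The log2 level was -5.74, -6.51 and -6.47 in shCtrl and -5.44, -5.37 and -5.25 in shXBP-1s. The groups did not overlap, and shCtrl replicate 1, the control on slide 2, lay nearer to the knockdown arrays than to the other controls.

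The log2 fold change of ABCC2 was 0.89 ± 0.22 (SE), a 1.85-fold higher signal that passed the adjusted threshold but not the 2-fold limit. Within slide 2 the difference was 0.39, and among the controls slide 2 exceeded slide 1 by 0.75, so slide and knockdown can be told apart for this dim probe only through 1 array. Without shCtrl replicate 1 the value was 1.14 and the probe was called. Under normexp, where the median over all tested probes was -0.41, the ABCC2 value was -0.71 ± 0.77 (SE). With quantile normalization added it was 0.15.

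ABCC1 (MRP1), the widespread exporter of glutathione conjugates and leukotriene C4, had log2 levels of -1.43, -1.54 and -1.32 in shCtrl and -1.16, -1.24 and -1.23 in shXBP-1s (NM_019862). The groups did not overlap, and the log2 fold change of 0.22 ± 0.07 (SE), a 1.16-fold higher signal, passed the adjusted threshold while remaining far from 2-fold. Across the alternatives it ranged from 0.07 to 0.27.

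ABCC4 (MRP4), which exports cyclic nucleotides and prostaglandins, had log2 levels of -2.28, -2.55 and -2.44 in shCtrl and -2.41, -2.49 and -2.52 in shXBP-1s (NM_005845). The groups overlapped, with a log2 fold change of -0.05 ± 0.08 (SE).

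ABCC5 (MRP5), another exporter of cyclic nucleotides, was read by 3 probes. For NM_005688 the log2 level was -1.13, -0.78 and -0.93 in shCtrl and -0.76, -0.74 and -0.75 in shXBP-1s. The groups just failed to overlap, and the log2 fold change of 0.20 ± 0.09 (SE) did not pass the adjusted threshold. It was 0.38 with slide as a block, an estimate that rests on shCtrl replicate 1 as its only control. Of the probes for the short variant NM_001023587, the first had a value of 0.23 ± 0.21 and the second of -0.05 ± 0.08 (SE), with overlapping groups in both.

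ABCG2, an exporter of urate, porphyrins and many drugs, had log2 levels of -4.23, -4.31 and -4.81 in shCtrl and -4.37, -4.34 and -4.58 in shXBP-1s (NM_004827). The groups overlapped and the log2 fold change was 0.02 ± 0.16 (SE).

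ABCB1, the broad drug exporter, was near background in all samples. Its probe for NM_000927 is printed on 10 spots per array, and its mean signal over unflagged spots was 6.4, 8.3 and 9.1 units in shCtrl and 10.3, 10.1 and 7.8 in shXBP-1s. Spots within an array differed by more than the groups did, from 3.9 to 12.8 units on shXBP-1s replicate 3 alone. The log2 fold change was -0.05 ± 0.19 (SE) with overlapping groups. A second ABCB1 probe was not well above background on any of the 6 arrays and has no fold change here.

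**Figure D3:**
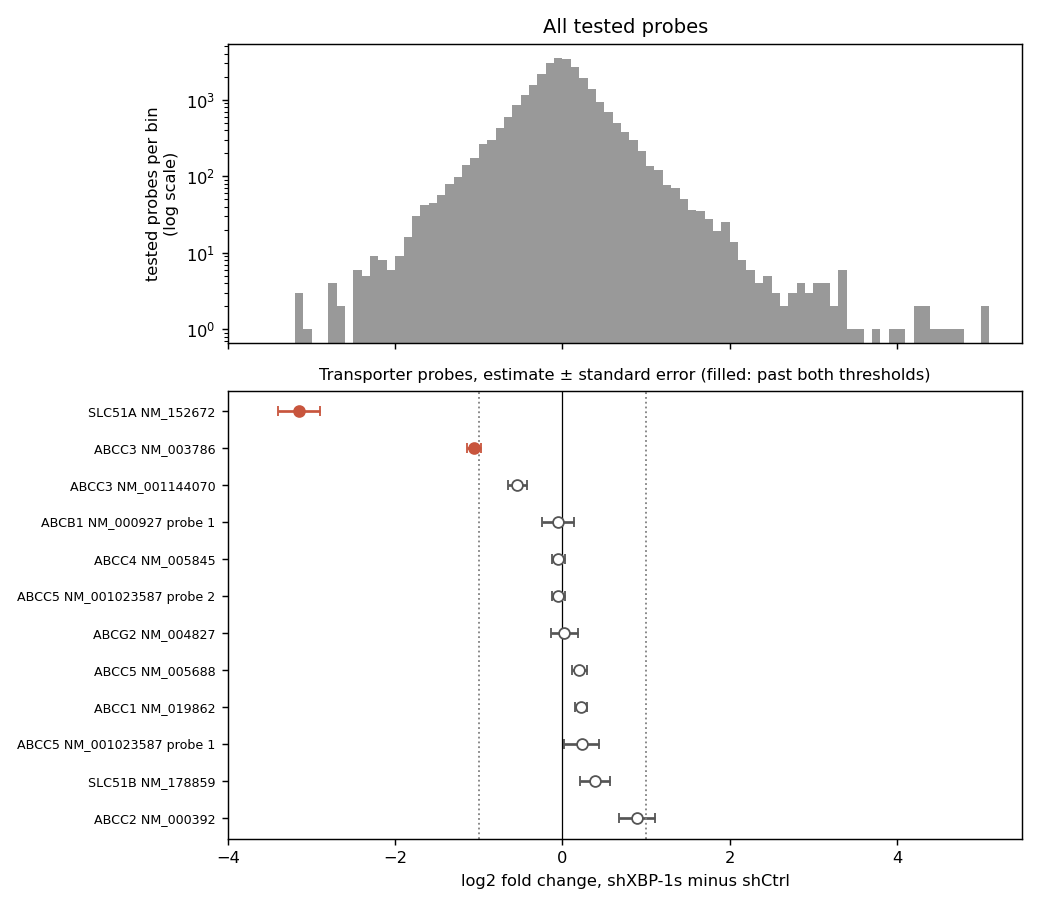
Top, number of tested probes per bin of log2 fold change (log axis) over all 27624. Bottom, log2 fold change (shXBP-1s minus shCtrl) and SE of the 12 tested member probes, filled where called, with dotted lines at 2-fold. SLC51A at -3.15 and ABCC3 (NM_003786) at -1.06 lie beyond 2-fold lower, ABCC2 is highest at 0.89, and 7 of the 10 ABC probes lie within 0.25 of 0.

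Taking the 12 probes as a set, 6 had a negative and 6 a positive log2 fold change. Groups did not overlap for 7 probes, 3 lower and 4 higher, where the share over all tested probes was 52.4% (28.5% lower and 23.9% higher). With no minimum fold 5 probes passed the adjusted threshold, SLC51A and both ABCC3 probes lower and ABCC1 and ABCC2 higher, where the share over all tested probes was 41.7% (23.3% lower and 18.4% higher). A probe's brightness reflects its sequence as well as the amount of its target, so levels were not ranked between genes.

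**Figure D4:**
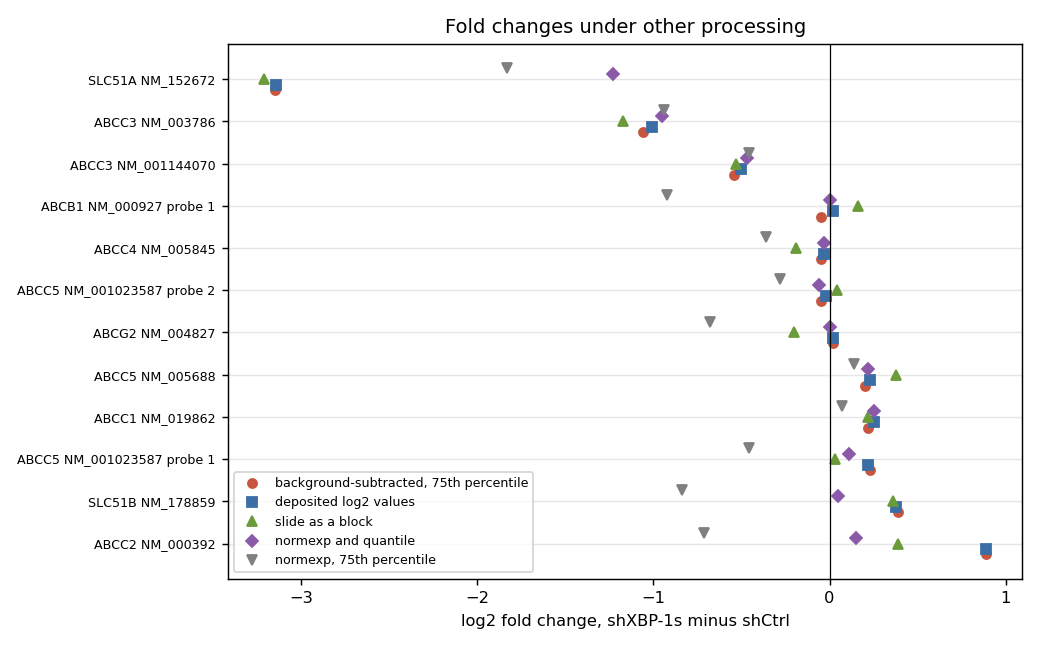
Log2 fold change of each tested member probe as reported (circles), with the deposited log2 values, with slide as a block and with both forms of normexp. SLC51A runs from -3.21 to -1.23, all below 0, whereas SLC51B (-0.84 to 0.39) and ABCC2 (-0.71 to 0.89) have values on both sides of 0. Both are negative only under normexp alone, where the median over all tested probes was -0.41.

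Other genes of the same transport biology were taken from 4 lists. Of 41 other ABC transporters, 30 had a tested probe and 3 were called (2 lower, 1 higher), which is 10.0% beside 6.41% over all genes with a tested probe, and the median log2 fold change was -0.03. ABCA12, the lipid transporter of keratinocyte lamellar granules, rose by 1.65 ± 0.07 (SE; adjusted p = 2.63e-06, limma). ABCC6, which neighbours ABCC1 on its chromosome and mediates ATP release from cells, fell by 1.51 and 1.29 with 2 of its 4 probes (adjusted p = 2.28e-06 and 4.37e-06, limma) but had values of -0.79 and -0.01 with the others, and it has near-identical pseudogenes, so its change is uncertain. ABCG4, a sterol exporter of the ABCG2 family, fell by 1.00 (adjusted p = 0.00158, limma), at the 2-fold limit. Its signal in shXBP-1s, from 7.3 to 9.8 units, was close to background.

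Of 30 carriers of bile acids and organic ions, 22 had a tested probe and 4 were called (18.2%), with a median log2 fold change of 0. SLCO3A1, an organic anion transporting polypeptide, fell by 1.30 with 1 probe (adjusted p = 2.09e-06, limma) and had a value of -0.01 with another (adjusted p = 0.967, limma). SLC47A2, a proton-coupled exporter of organic cations, fell by 1.22 (adjusted p = 0.000221, limma). SLCO2A1, the prostaglandin transporter, rose by 1.07 and SLCO1B1, known as the hepatic uptake carrier of bile acids and statins, by 1.00 (adjusted p = 0.000188 and 0.000447, limma). Both were dim in shCtrl, with signals from 16.5 to 20.1 and from 11.4 to 13.1 units, and SLCO1B1 was at the 2-fold limit.

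Among 18 regulators of transporter genes, 16 had a tested probe and 1 was called (6.25%), with a median of 0.01. NR5A2, a nuclear receptor that drives bile acid synthesis genes, fell by 1.68 with 1 probe (adjusted p = 9.86e-06, limma) and had a value of 0.01 with another. NR1H4 (FXR), the bile acid receptor known to induce SLC51A and SLC51B, had a value of 0.14 and did not pass the test. Its signal was dim, from 10.5 to 19.1 units. With no minimum fold 4 of the list's 22 tested probes passed the adjusted threshold lower and 2 higher. RXRA fell by 0.79 (adjusted p = 0.000243, limma), and AHR rose by 0.95 and 0.21 with its probes (adjusted p = 7e-06 and 0.0121, limma). PPARA and NR1I3 fell by 0.68 and 0.76 with 1 probe each (adjusted p = 0.000269 and 0.0028, limma). Their other probes had values of 0.01 and 0.07 and did not pass. Of 34 conjugating enzymes, which make the substrates of ABCC pumps, 25 had a tested probe and 4 were called (16.0%), with a median of -0.08.

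UGT1A6, a glucuronosyltransferase that shares exons with the rest of the UGT1A family, rose by 1.57 and 1.26 with its called probes (adjusted p = 6.18e-05 and 0.000472, limma). The probe at 1.57 was dim in shCtrl, from 9.9 to 10.3 units. GSTM2, a glutathione transferase with close paralogs, fell by 1.17 with 1 probe (adjusted p = 0.0189, limma) and had a value of 0.04 with another (adjusted p = 0.849, limma). The called GSTM2 probe read 7.4, 12.5 and 14.4 units in shXBP-1s, close to background. The called probes of the other called enzymes, UGT2B7 and GSTA4, were not well above background on every array, and a second GSTA4 probe that was had a value of -0.55 (adjusted p = 0.00192, limma).

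**Figure D5:**
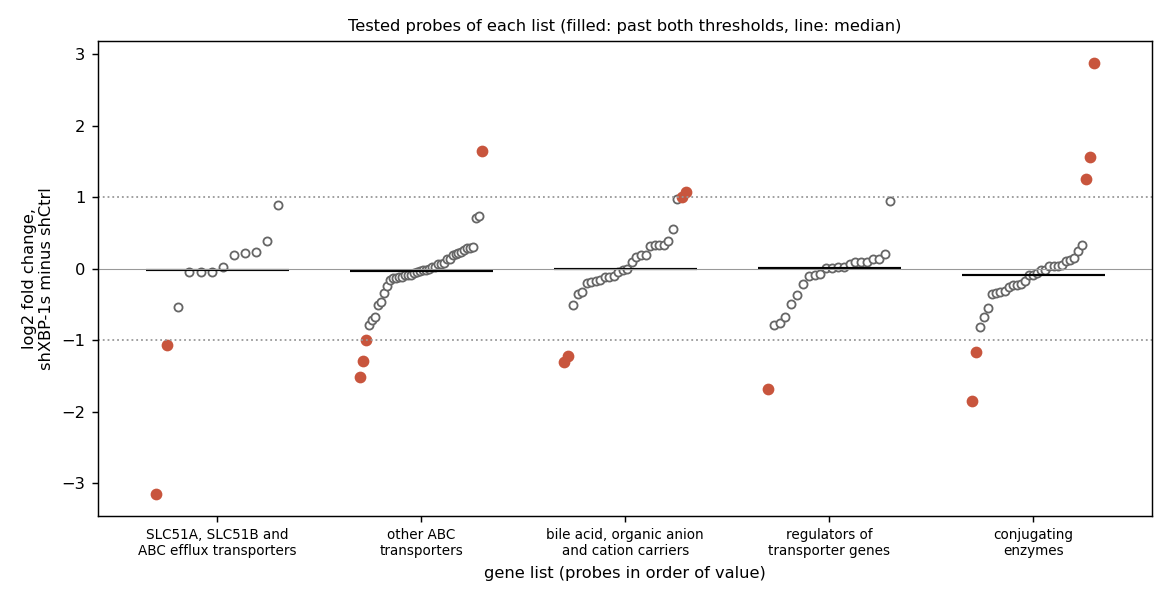
Log2 fold change (shXBP-1s minus shCtrl) of every tested probe of the member genes and of the 4 lists, 1 point per probe, in order of value, filled where called, with a line at the list's median and dotted lines at 2-fold. Medians lie between -0.08 and 0.01, and SLC51A at -3.15 is the lowest point shown.

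The genes whose pattern over the 6 arrays lay nearest to that of SLC51A were CPS1, SLC2A4, LY6D, RSPO3 and KCNQ1, by the Euclidean distance between log2 levels centred on each probe's mean, at distances of 0.69, 0.90, 0.92, 0.97 and 0.98. CPS1 is the first enzyme of the urea cycle, SLC2A4 the insulin-regulated glucose carrier, LY6D a surface protein of squamous cells, RSPO3 an enhancer of Wnt signalling and KCNQ1 a potassium channel. By log2 fold change these genes took places 1, 6, 7, 3 and 5 from the bottom among all tested probes. The list therefore largely restates the size of the fall by which SLC51A was chosen, and no shared pattern beyond that is read from it. SLC2A4 and LY6D both had a log2 fold change of -2.74. CPS1, RSPO3 and KCNQ1 were not well above background on any shXBP-1s array. Against the lowest signal well above background, their shCtrl means gave ratios of 7.39, 2.9 and 6.33. These are not strict lower limits, since a probe not well above background can read brighter than that lowest signal. Under normexp, with or without quantile normalization, 0 of the 5 were among the 5 nearest.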

How the data were processed

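Total RNA of 6 CAL-27 samples was read on one-colour Agilent arrays, 3 per group. The deposited scanner files give the intensity of each spot, which the authors extracted with Agilent Feature Extraction 11.0.1.1 and which is already background-subtracted in the processed column. The deposited value table holds log2 values, normalized by the authors, and correlated with log2 of the scanner signal between 0.9997 and 0.9999 per array. The labels describe a NimbleGen labelling step, whereas the files are Agilent's. The files hold no read depth, and 3 arrays per group limit the precision.

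Control spots and spots flagged as outliers were left out, spots of a probe were averaged, and log2 signals were set relative to the array's 75th percentile. Probes that every array of either group read well above background were fitted with limma 3.58.1 (R 4.3.3; lmFit, eBayes with trend), two-sided, with Benjamini-Hochberg adjustment over 27624 probes. Tables and plots were made in Python 3.11.15. In simulated data 192 of 200 probes changed by 1.5 to 3 on the log2 scale were recovered and 0 others called, and smaller changes were not simulated. Alternatives were another background correction (normexp, offset 50), quantile normalization, the deposited values, other filters, the methods' t-test (adjusted and unadjusted), slide and replicate blocks, and leaving out each array.

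Named were all members, XBP1, up to 5 called genes per list with the largest change among probes well above background on all 6 arrays, and the 5 genes nearest to SLC51A. Cell type markers outside that rule were named after their values were seen. So were the regulators NR1H4, RXRA, AHR, PPARA and NR1I3 and the enzymes UGT2B7 and GSTA4. The members and lists were chosen with earlier results of these data known. Protein sequences were not used here. The ratio given for a probe not above background in 1 group sets the other group's mean against the lowest signal well above background. It is not a strict limit.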

Additional observations from a re-analysis of the deposited data

How the results depend on the processing

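The count of called probes over the whole array, 1354, was 473 under normexp, 363 under normexp with quantile normalization and 11516 with no minimum fold, and between 1093 and 1577 under the other alternatives of scaling, filter, test and block. Leaving out each array in turn gave between 1275 and 1750. Called member probes, 2 as reported, numbered 1 under normexp, 1 under normexp with quantile normalization and 5 with no minimum fold, and from 1 (without shXBP-1s replicate 3, which lost ABCC3) to 3 (without shCtrl replicate 1, which added ABCC2) when an array was left out. For called genes of the 4 transport lists, 12 as reported, alternatives chosen after seeing the data gave 3, 1 and 40 under the same 3 settings and from 9 to 14 with an array left out. Of the 5 genes nearest to SLC51A, also followed under alternatives added later, 0 were kept under normexp, 0 under normexp with quantile normalization and from 3 to 5 with an array left out. Normexp moved the median over the whole array, as log2 fold change, from -0.02 to -0.41, and the cause of the lower counts was not tested. Of 168 fold changes of member probes under alternatives 150 kept their sign and 18 did not, and 16 moved by more than the replicate SD, 9 of them under normexp alone.

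Deviations of samples that share a replicate number correlated at -0.016, 0.117 and -0.116. Those of samples with different numbers ranged from -0.125 to 0.117. Pairing by number was therefore not assumed, though 3 samples per group are too few to settle it. With the number as a replicate block 1381 probes, 2 member probes and 12 list genes were called. Dim probes, among them SLC51B, ABCC2 and ABCB1 of the members and SLCO1B1, SLCO2A1 and ABCG4 of the lists, are limited by their signal over background.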

Other observations

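The protein-coding genes next to SLC51A on its chromosome, 3 on either side in the RefSeq order, all had a tested probe, and none of the 6 was called lower. Over all genes with a tested probe 3.64% had a probe called lower and 2.79% a probe called higher. Nothing is read from counts among 6 genes. The log2 fold changes of the 6 ran from -0.16 to 1.61. ZDHHC19, a palmitoyltransferase gene beside SLC51A, had 1.05 and TM4SF19, a tetraspanin-like membrane protein gene 3 places away, had 1.61, and both were called higher. TFRC, the transferrin receptor gene, had the lowest value. These genes were picked by position, and those named here were chosen after their values were seen. Neighbours of SLC51B, ABCC1 and ABCC4 also included called genes. The tested neighbours of ABCC2, ABCC3, ABCC5, ABCB1 and ABCG2 did not.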
